A study of Zea mays with 6 samples.

Results

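The 200 array probes whose transcripts were most enriched in laser-microdissected pre-meiotic cells of the maize anther are described here, in the W23 samples that defined them and in mac1 samples that did not. Each array held 42034 maize probes. Of these, 27875 were free of outlier flags and well above background in both channels of both W23 arrays, with the AM1 probes set aside by the rule. On each array the log2 ratio of pre-meiotic cells over whole anthers was taken from the scanner software's processed signals, and the 200 probes with the highest value of the smaller of their 2 ratios were kept. Members were thus chosen by these measured W23 ratios. They are called members below, and the 27875 probes are called the filtered probes.

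The series comprised 6 RNA samples on 3 two-colour arrays. In wild-type plants of the inbred line W23, pre-meiotic cells cut out by laser and entire anthers were sampled at an anther length of 700 µm by their titles, as replicates 1 and 2, although another label gives 701 µm for replicate 2. Pre-meiotic cells of mac1 mutant and of mac1 heterozygous anthers, both 1 mm long, were sampled once each, the mutant in Cy5 and the heterozygote in Cy3. The design text treats the heterozygote as the wild type of that experiment, and neither the mac1 allele nor its inbred background is given in the sources used here. The mac1 samples therefore differ from the W23 samples in anther length, genotype, slide and scan at once, and these cannot be told apart. All dissected samples went through a column extraction for small samples, whereas whole anthers were extracted with TRIzol, so that cell type and preparation cannot be told apart in the W23 ratios. In dissected or bulk tissue, fewer cells of a type and less RNA per cell cannot be told apart either. The labels do not say whether replicates came from separate plants, so the spread between them may be technical.

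In the anther, the archesporial cells at the centre of each lobe divide as pre-meiotic cells and later enter meiosis together, while the somatic layers around them, the epidermis, endothecium, middle layer and tapetum, support pollen formation. Whole anthers contain both. In maize, mac1 (multiple archesporial cells1) encodes a small secreted protein through which archesporial cells act on their neighbours. In its mutants, archesporial cells are too many and the somatic layers around them do not form normally. The study's title concerns low oxygen as a trigger of meiotic fate. AM1 (ameiotic1) is required for maize cells to enter meiosis instead of continuing mitotic divisions.

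None of the members could be given a gene name. The files name them by sequence records: 135 carry TC numbers, which stand for assembled groups of expressed sequence tags, 3 carry NP numbers and 62 carry single accessions, for 198 distinct names. Of these names, 0 were found in the RefSeq gene table of the Zm-B73-REFERENCE-NAM-5.0 assembly, which held only 4 probes of the array, so none of the 14 lists of pathways and processes could be counted among the members. TC names made up 67.5% of the members, 72.9% of the filtered probes and 64.6% of all probes. The single marker of the cell type with a name was AM1. Of its 3 probes, 2 lay beyond the threshold that defined the members, with smaller ratios of 3.88 and 3.35, and the remaining probe stood at 1.31. The AM1 probe with the highest smaller ratio had levels of -4.12 and -4.30 in whole anthers and of -0.20 and -0.16 in W23 pre-meiotic cells (replicates 1 and 2), where a level is the log2 processed signal minus the 75th percentile of that sample. The labelled pre-meiotic samples thus held more AM1 signal than whole anthers on both arrays. No named marker of the somatic layers was measured.

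The members were 4.73-fold to 13.2-fold higher in pre-meiotic cells by their smaller ratio. This range was set by the rule and is given with no test. It holds for the processed signals, where the median smaller ratio was 2.50. With normexp background correction that median was 2.02 without an offset and 1.27 with an offset of 50. Their log2 ratios ran from 2.24 to 4.26 on the replicate 1 array (median 2.69) and from 2.24 to 4.24 on the replicate 2 array (median 2.56), against medians of 0.08 and 0.15 over the filtered probes. The dyes were swapped between the arrays, and 165 of the 200 members (82.5%) had ratios within 0.5 of each other, against 63.9% of the filtered probes. Choosing by the smaller ratio favours such closeness. The arrays were more than 1 apart for 8 members. None was saturated in any channel. The last members inside the threshold were TC288056, TC310592 and TC314308, with smaller ratios of 2.24, 2.24 and 2.24. The first probes outside it, TC298567, TC291859 and BE640463, had the same 2.24 to 2 decimals. The threshold thus falls in a continuous range of ratios and separates no distinct class. At least 2-fold enrichment on both arrays was found for 3233 of the filtered probes (11.6%).

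**Figure D1:**
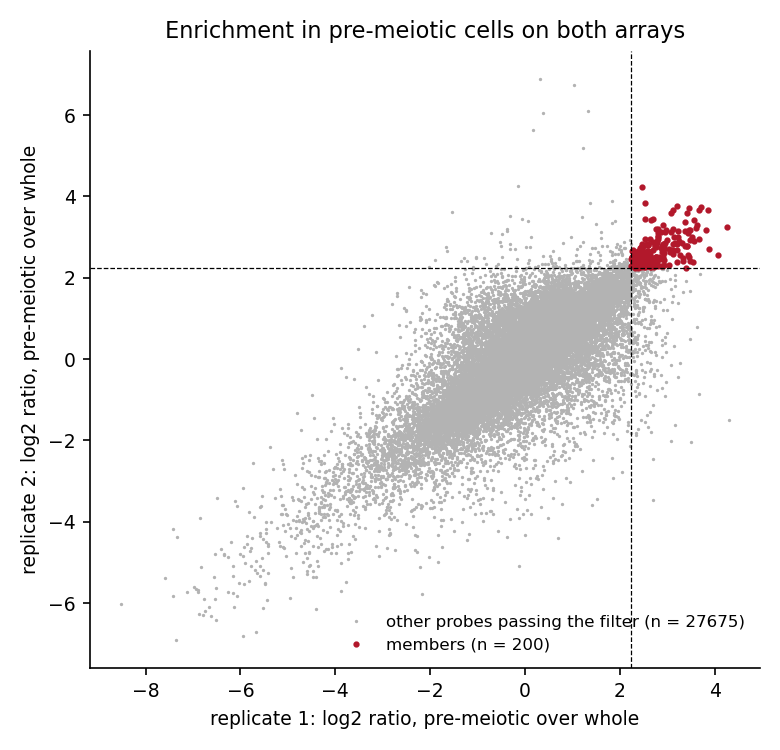
Log2 ratio of pre-meiotic cells over whole anthers on the replicate 1 array (horizontal axis) and the dye-swapped replicate 2 array (vertical axis), with members in red, the other filtered probes in grey and the threshold of 2.24 as dashed lines. The members fill the upper right corner and adjoin the other probes without a gap.

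The most enriched sequence was DR803797. Its level was -1.46 and -1.80 in whole anthers replicates 1 and 2, 2.30 and 1.96 in W23 pre-meiotic cells, 0.33 in mac1 heterozygote cells and -1.15 in mac1 mutant cells. Its W23 ratios were 3.72 and 3.74. In the mutant it lay closer to whole anthers than to any other dissected sample.

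TC291130 had W23 ratios of 3.68 and 3.66, with levels of -3.60 and -3.89 in whole anthers, 0.11 and -0.21 in W23 pre-meiotic cells, -0.95 in the heterozygote and -4.01 in the mutant. The mutant had the lowest measured level of its 6 samples, but close to whole anthers. Its log2 ratio to the heterozygote had a spot error (the scanner software's error) of 1.22, so this order is not firm. TC301958 had ratios of 3.86 and 3.66, with levels of -1.72 and -1.82 in whole anthers, 2.17 and 1.87 in W23 pre-meiotic cells, 1.98 in the heterozygote and -0.55 in the mutant. Here the heterozygote lay within the range of the W23 pre-meiotic cells and the mutant lay between these and whole anthers. DR799733 had ratios of 3.47 and 3.72, with levels of -3.44 and -4.09 in whole anthers, 0.06 and -0.34 in W23 pre-meiotic cells, -1.86 in the heterozygote and -1.96 in the mutant. Both mac1 samples of this sequence were alike and lay between the W23 groups.

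TC307993 had ratios of 3.43 and 3.58, with levels of 0.68 and 0.57 in whole anthers, 4.15 and 4.17 in W23 pre-meiotic cells, 3.03 in the heterozygote and 3.65 in the mutant. TC290706 had ratios of 3.55 and 3.41, with levels of -3.96 and -4.78 in whole anthers, -0.37 and -1.34 in W23 pre-meiotic cells, -1.56 in the heterozygote and -2.65 in the mutant. CF075587 had ratios of 3.38 and 3.37, with levels of -1.77 and -1.64 in whole anthers, 1.65 and 1.75 in W23 pre-meiotic cells, 1.70 in the heterozygote and 0.54 in the mutant. For these sequences every dissected sample exceeded both whole-anther samples. The same held for TC289279, which had ratios of 3.64 and 3.29, with levels of -0.67 and -0.71 in whole anthers, 3.01 and 2.60 in W23 pre-meiotic cells, 2.08 in the heterozygote and 2.11 in the mutant. Of these 8 most enriched members, 5 were at least 2-fold lower in the mutant than in the heterozygote and 0 at least 2-fold higher, where the filtered probes gave 8.08% and 8.12%. With normexp background correction with an offset of 50, only TC301958 of these 5 stayed at least 2-fold lower, at a log2 ratio of -1.32. The others stood from -0.75 to -0.11. With normexp without an offset, only TC290706 of the 5 fell under 2-fold, at -0.47. With the processed signals, the members at ranks 51 to 100 showed no such lean. Of 47 measured, 4 (8.51%) were lower and 5 (10.6%) higher, near the shares of the filtered probes.

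Some of the member sequences were measured by further probes, which test the same record at other spots. A pair of TC313356 probes were both members, with smaller ratios of 2.81 and 2.53. A pair of TC283860 probes were both members too, with ratios of 2.46 and 4.24 for one and 2.46 and 2.70 for the other. A further 18 probes carried the name of a member without being one, and 14 of them passed the filter. Of these 14, 13 were above 0 on both W23 arrays, against 45% of the filtered probes, and 4 were at least 2-fold enriched on both, against 11.6%. The median of their smaller ratios was 0.63, below those of the members, which had been picked for being high.

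The TC310592 probes went opposite ways. The member had ratios of 2.24 and 2.45 and the other probe -1.66 and -1.02, although they share 1 name. The TC313148 probes, chosen after their values were seen, went the same way, at 2.37 and 2.49 for the member and 1.28 and 1.54 for the other probe. Probe sequences were not used here, so whether 2 probes of a name detect the same transcript is not known.

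The next question was whether the transcripts enriched in W23 pre-meiotic cells were also present in pre-meiotic cells of the mac1 experiment, which played no part in choosing them. Of the 200 members, 194 (97%) were well above background in both mac1 channels, against 85.4% of the filtered probes. The members were brighter to begin with in W23 pre-meiotic cells, with median levels of 0.79 and 0.66, against -0.88 and -0.86 for the filtered probes. A brighter probe passes this flag more easily. Whether the share exceeds that of probes of like brightness was not tested. The other 6 were well above background in the heterozygote only, and 0 in the mutant only. Among the filtered probes, 2431 (8.72%) were measured in the heterozygote only and 521 (1.87%) in the mutant only. Over the whole array, 72.9% of probes were well above background in the heterozygote and 64.4% in the mutant, against 73.9% to 84.3% in the 4 W23 samples.

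By their median, the members stood closer to W23 pre-meiotic cells than to whole anthers in both mac1 samples. Their median level was -2.10 and -2.05 in whole anthers replicates 1 and 2, 0.79 and 0.66 in W23 pre-meiotic cells, 0.50 in the heterozygote and 0.31 in the mutant. The filtered probes as a whole had medians between -1.01 and -0.86 in the 6 samples. For each member the heterozygote exceeded the mean of whole anthers by a median of 2.48 on the log2 scale (5.58-fold) and the mutant by 2.24 (4.72-fold), where the filtered probes gave 0.17 and 0.14. Both mac1 samples were above both whole-anther samples for 189 of the 200 members, against 39.2% of the filtered probes. The low whole-anther level was part of the choice of members, so these differences are a description. The lowest levels of the filtered probes were -5.12 in the heterozygote and -4.75 in the mutant, against -6.69 and -6.59 in whole anthers. A dim member can thus stand above whole anthers without being well above background. TC309876, TC285471 and the dimmer TC283860 probe counted among the 189 though not well above background in the mutant. How far this raised the count was not tested. With normexp background correction with an offset of 50 the medians were 1.33 and 1.22, and in the authors' deposited table they were 1.08 and 0.75 over the 183 members with values above 0.

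**Figure D2:**
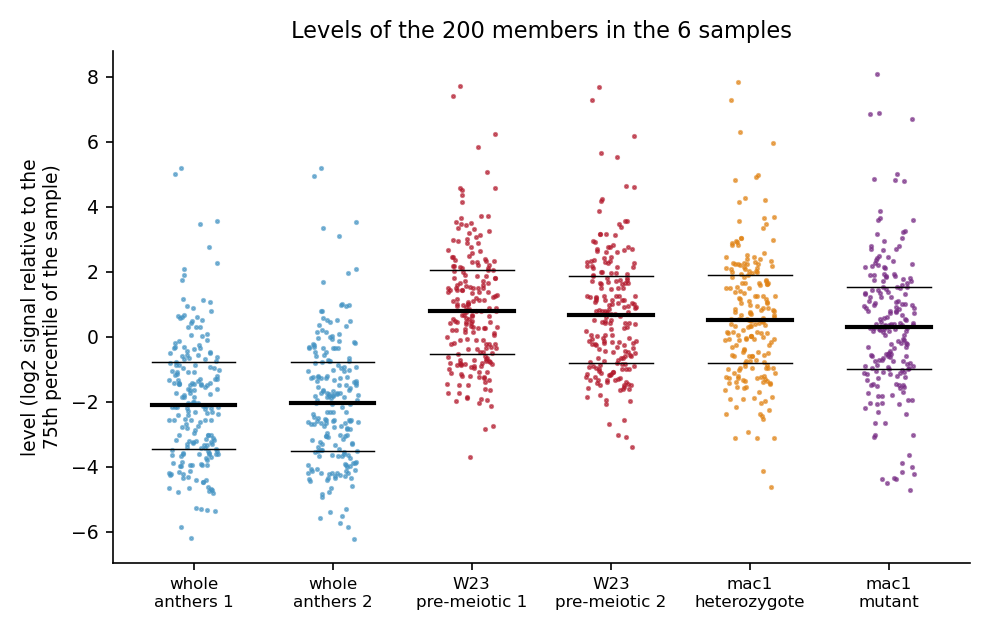
Level (log2 processed signal relative to the 75th percentile of the sample) of each of the 200 members in each of the 6 samples, with the median as a thick line and the quartiles as thin lines. Whole anthers have medians of -2.10 and -2.05, and the dissected samples, mac1 samples included, lie between 0.31 and 0.79.

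In 8 of the other 11 members the heterozygote alone was above both whole-anther samples, in 2 the mutant alone, and in 1 neither. That one was DR964399, with levels of -1.08 and -1.19 in whole anthers, 1.56 and 1.13 in W23 pre-meiotic cells, -1.59 in the heterozygote and -1.08 in the mutant. Its W23 enrichment was thus not seen in either mac1 sample. TC303716 and TC300520 were among the 8 and, like DR964399, are named after their values were seen. TC303716 stood at -1.37 in the heterozygote and -2.37 in the mutant, against -2.57 and -2.06 in whole anthers. TC300520 stood at 0.20 and -0.71, against -0.57 and -1.26.

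The direct comparison of mac1 mutant with heterozygote cells asked how the pre-meiotic transcripts stood without normal mac1 function. The members leaned to the lower side. Of the 194 members measured in both channels, 30 (15.5%) were at least 2-fold lower in the mutant, against 8.08% of the filtered probes, and 9 (4.64%) were at least 2-fold higher, against 8.12%. The median log2 ratio of mutant over heterozygote was -0.31 for the members (quartiles -0.71 and 0.26) and -0.03 for the filtered probes (quartiles -0.46 and 0.39). It was below 0 for 123 members (63.4%), against 52.1% of the filtered probes. Within 2-fold lay 155 of the members (79.9%), near the 83.8% of the filtered probes. At least 4-fold, 7 members were lower (against 1.2% of the filtered probes) and 2 higher (against 1.27%).

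This array had 1 sample per genotype and no dye swap, so there is no test, and genotype, dye and sample cannot be told apart. The sizes depend on the background correction: with normexp with an offset of 50, 4 members were at least 2-fold lower (against 0.705% of the filtered probes) and 1 higher (against 1.02%), with a median of -0.13.

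**Figure D3:**
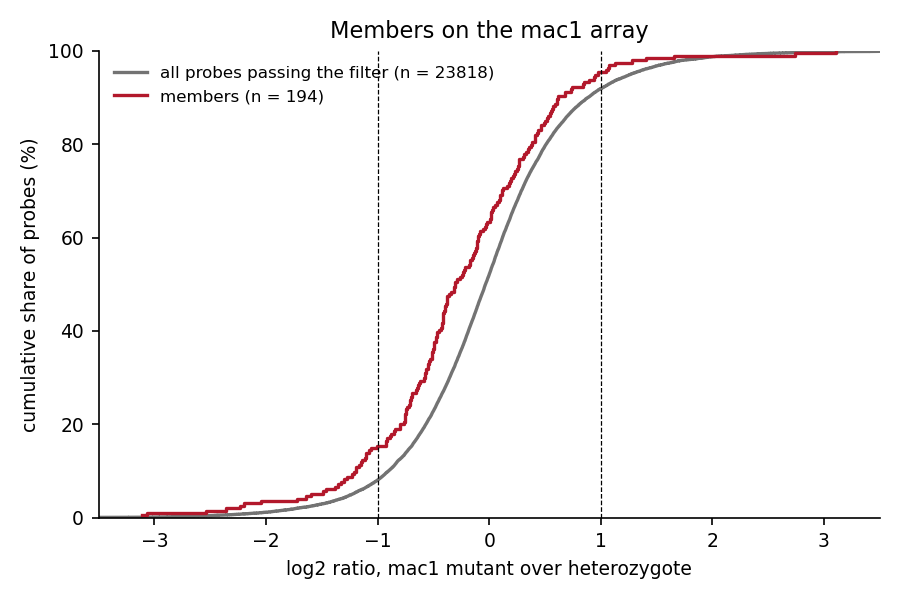
Cumulative share of probes (vertical axis, percent) against the log2 ratio of mac1 mutant over heterozygote (horizontal axis, drawn from -3.5 to 3.5) for the 194 measured members in red and the 23818 measured filtered probes in grey, with 2-fold as dashed lines. The red curve lies to the left over most of the range, with medians of -0.31 and -0.03.

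The 30 lower members had ratios from -3.11 to -1.01. In all 30 the heterozygote was above both whole-anther samples, against 197 of the 200 members, and in 25 the mutant was too, against 191. The mutant was below both W23 pre-meiotic samples in 23 of the 30, against 123 of the 200 members. The heterozygote was above both in 12, against 65 of the 200, and below both in 14, against 110. Choosing by a low ratio favours a low mutant and a high heterozygote level. For a single spot the scanner software gives an error of its signal, and the errors carried to the log2 ratio had a median of 0.24 in this set and exceeded 0.5 in 6 members.

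With the processed signals, the lowest ratio belonged to TC284696, at -3.11 ± 1.37 (spot error, 1 array). Its levels were -2.38 and -2.62 in whole anthers, 0.30 and -0.13 in W23 pre-meiotic cells, -1.12 in the heterozygote and -4.23 in the mutant. TC291130, second by enrichment, followed at -3.07 ± 1.22 (spot error). In both the measured mutant level lay below every other sample, in TC291130 by less than the spot error. With normexp without an offset TC284696 stood at -1.39 and TC291130 at -1.03, above TC284325 at -2.17 and TC301958 at -2.15, and with an offset of 50 they stood at -0.35 and -0.32, so neither their size nor their place holds under another background correction.

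TC301958 was better measured, at -2.54 ± 0.23 (spot error), 5.82-fold lower in the mutant. TC297866 stood at -2.36 ± 0.34 (spot error), with levels of -4.23 and -3.31 in whole anthers, -0.85 and -0.88 in W23 pre-meiotic cells, 0.53 in the heterozygote and -1.82 in the mutant. TC284325 stood at -2.24 ± 0.43 (spot error), with levels of -4.34 and -4.83 in whole anthers, -1.15 and -1.80 in W23 pre-meiotic cells, -0.08 in the heterozygote and -2.31 in the mutant. In TC297866 and TC284325 the heterozygote was the highest of the 6 samples and the mutant lay between the W23 groups. CF048656, at -2.20 ± 1.01 (spot error), had levels of -3.16 and -3.88 in whole anthers, -0.85 and -1.47 in W23 pre-meiotic cells, -1.44 in the heterozygote and -3.63 in the mutant, which fell within the range of whole anthers. With normexp with an offset of 50, TC297866, TC284325 and CF048656 stood at -0.70, -0.75 and -0.25, all under 2-fold. Without an offset they stood at -1.59, -2.17 and -1.02. The spot error does not cover this dependence on the background correction.

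**Figure D4:**
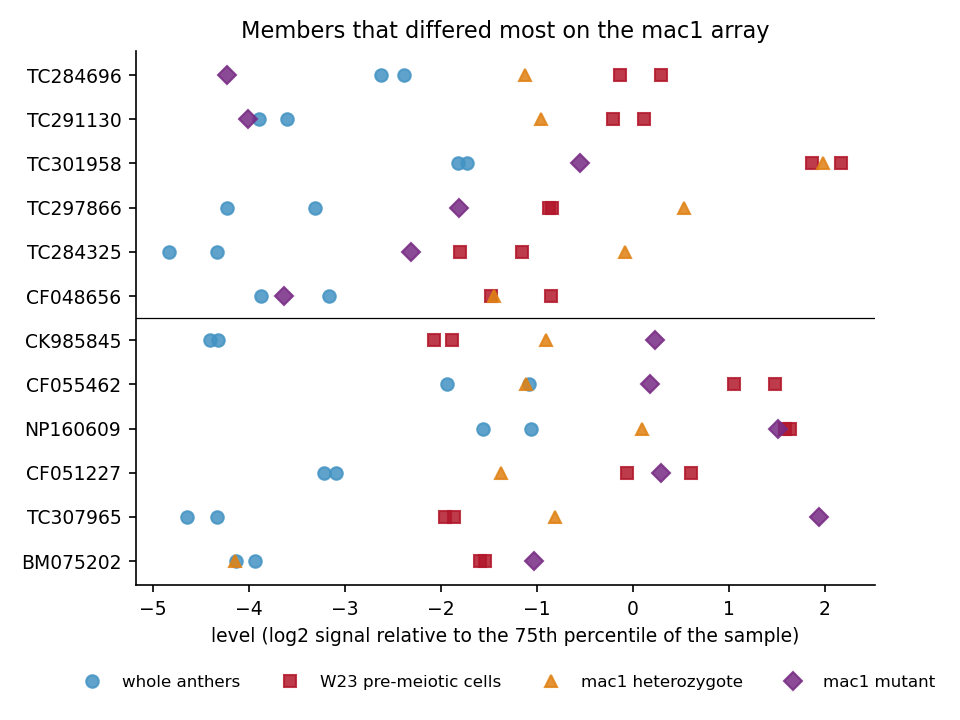
Levels (log2 processed signal relative to the 75th percentile of the sample) in all 6 samples of the 6 members with the lowest ratio of mutant over heterozygote (above the line) and the 6 with the highest (below it). In TC284696 the mutant lies below whole anthers, in TC291130 it lies just below them, and in BM075202 the heterozygote lies at the level of whole anthers.

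The 9 higher members had ratios from 1.05 to 3.10. In 7 of them the heterozygote was above both whole-anther samples, against 197 of the 200 members, and in all 9 the mutant was, against 191. With the processed signals, BM075202 was the highest at 3.10 ± 0.85 (spot error), with levels of -3.93 and -4.14 in whole anthers, -1.59 and -1.54 in W23 pre-meiotic cells, -4.14 in the heterozygote and -1.03 in the mutant. Here the heterozygote, not the mutant, departed from the other dissected samples. With normexp its ratio was 1.75 without an offset and 0.42 with an offset of 50, below TC307965 at 2.97 and 1.53.

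TC307965 stood at 2.74 ± 0.22 (spot error), 6.68-fold higher in the mutant, with levels of -4.65 and -4.33 in whole anthers, -1.86 and -1.96 in W23 pre-meiotic cells, -0.81 in the heterozygote and 1.94 in the mutant. The mutant was far above all 5 other samples. CF051227 stood at 1.65 ± 0.24 (spot error), with levels of -3.22 and -3.10 in whole anthers, -0.06 and 0.60 in W23 pre-meiotic cells, -1.37 in the heterozygote and 0.29 in the mutant. NP160609 stood at 1.41 ± 0.21 (spot error), with levels of -1.56 and -1.06 in whole anthers, 1.58 and 1.63 in W23 pre-meiotic cells, 0.10 in the heterozygote and 1.51 in the mutant.

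In CF051227 the mutant lay within the range of W23 pre-meiotic cells, in NP160609 it lay just below it, and the heterozygote was lower in both. CF055462 stood at 1.28 ± 0.25 (spot error), with levels of -1.08 and -1.93 in whole anthers, 1.48 and 1.06 in W23 pre-meiotic cells, -1.11 in the heterozygote and 0.18 in the mutant. CK985845 stood at 1.13 ± 0.23 (spot error), with levels of -4.32 and -4.40 in whole anthers, -1.88 and -2.07 in W23 pre-meiotic cells, -0.90 in the heterozygote and 0.23 in the mutant. In this last sequence both mac1 samples were above every W23 sample.

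For the 6 members not well above background in the mutant, the fold was taken from the mutant's own dim signal. In each case that signal exceeded the dimmest signal that still counted as well above background. It sets no firm limit, so the true folds could be smaller or larger. TC296219 stood at -2.47 ± 1.46 (spot error), 5.54-fold lower in the mutant than in the heterozygote. TC283860, on the dimmer of its probes, stood at -1.66 ± 1.49 (spot error), 3.15-fold lower. TC285471 stood at -1.29 ± 1.52 (spot error), 2.45-fold lower. TC309876 stood at -0.11 ± 1.86 (spot error), 1.08-fold lower, and its heterozygote signal was nearly as low. With these 6 included as measured, 35 of 200 members were at least 2-fold lower, against 11.7% of the filtered probes measured in at least 1 channel. The brighter TC283860 probe, measured in both channels, stood at -1.14, and the TC313356 probes at -0.02 and -0.46. The AM1 probes had mutant over heterozygote ratios of -0.48, 0.41 and 0.09, all within 2-fold.

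The lean towards the heterozygote was not limited to the 200 members. Along the order of enrichment, the median mutant over heterozygote ratio was -0.21 for ranks 201 to 400, -0.27 for ranks 401 to 800 and -0.21 for ranks 801 to 1600. It was -0.13 for ranks 1601 to 3200, -0.09 for ranks 3201 to 6400 and -0.01 for ranks 6401 to 12800, and it was 0.02 and 0.00 in the remaining bins. Among the members themselves there was no steady order: ranks 1 to 50 had a median of -0.39 with 13 of 50 at least 2-fold lower, ranks 51 to 100 had 0.12 with 4 of 47, ranks 101 to 150 had -0.39 with 7 of 48, and ranks 151 to 200 had -0.32 with 6 of 49. Over the 194 members, which share 1 array for the ratio, the smaller W23 ratio and the mac1 ratio were related by Pearson's r of -0.14 and Spearman's rho of -0.0010. The rule limited the smaller ratio to a narrow range here, so these values do not show whether the ratio goes with the degree of enrichment.

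**Figure D5:**
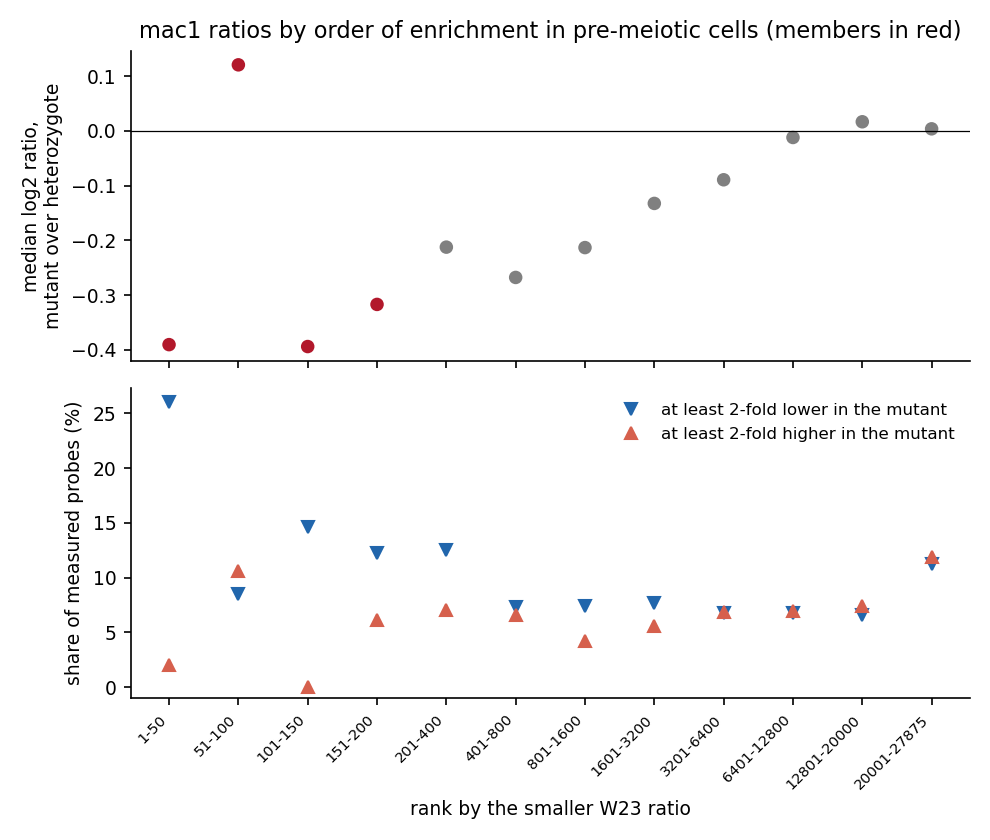
Median log2 ratio of mutant over heterozygote (top) and share of measured probes at least 2-fold lower or higher in the mutant (bottom, percent) for the filtered probes in order of the smaller W23 ratio, with the members in red in the top panel. The medians go from -0.21 at ranks 201 to 400 to -0.01 at ranks 6401 to 12800, and ranks 51 to 100 stand apart at 0.12.

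At the other end of the W23 ratios, the 200 most depleted probes spread to both sides. Of the 168 measured in both mac1 channels, 38 (22.6%) were at least 2-fold lower and 37 (22.0%) at least 2-fold higher in the mutant. The filtered probes gave 8.08% and 8.12%. The median of the depleted probes was 0.07, and their brightness was not matched to that of the filtered probes. The shares differed with brightness on the mac1 array. With the filtered probes split by brightness into 3 equal sets, in the brightest set 10 of 81 members (12.3%) were at least 2-fold lower against 3.19% of the filtered probes there, with medians of -0.31 and -0.01. In the middle set it was 13 of 92 (14.1%) against 6.50%, with medians of -0.31 and -0.05, and in the dimmest 7 of 21 (33.3%) against 14.5%, with medians of -0.14 and -0.06. With the processed signals the members were thus lower more often than the filtered probes within each set, while few of them were dim. The sets are wide and do not match members to probes of like brightness. Whether the lean holds among probes so matched was not tested. Subtracting the mean red over green ratio of the dye-swapped W23 arrays, an estimate that holds replicate differences too, left 23 members at least 2-fold lower (11.9%, against 9.11%) and 10 higher (5.15%, against 7.73%), with medians of -0.23 and -0.06. With the same subtraction the median of the 200 most depleted probes changed sign, to -0.15.

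The members can also be followed from W23 cells of 700 µm anthers to mac1 heterozygote cells of 1 mm anthers. These samples differ in anther length, genotype, slide and scan, which cannot be told apart, and the W23 level was part of the choice of members. Of the 194 members measured in both mac1 channels, 94 (48.5%) had both mac1 samples below both W23 pre-meiotic samples, against 25.3% of the filtered probes, and 42 (21.6%) had both above, against 38.4%. In the heterozygote, 39 members were at least 2-fold below the W23 mean, against 11.2% of the filtered probes, and 29 (14.9%) at least 2-fold above it, against 14.9%.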

How the data were processed

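Messenger RNA was measured on 3 two-colour Agilent arrays carrying 6 samples of 4 groups. Per the file headers, the deposited intensity columns, among them the processed signals, their errors and the detection flags used here, came from Agilent Feature Extraction 10.5.1.1, and header fields record its linear and lowess dye factors. The notes on processing that the submitters gave GEO list R 2.13 and limma 3.8.3. A further table of values by the authors, deposited with the series, holds linear intensity whose scaling between arrays stayed unknown. Its column medians ran from 44 to 64.9, and each column correlated best with its own channel (0.951 to 0.966 on log2 values above 0, against at most 0.932 with any other).

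Processed signals were used because the rule that chose the members uses them. Normexp with loess (limma 3.58.1, R 4.3.3) was an alternative. Control and outlier-flagged spots were left out, and other steps ran in Python 3.11.15. The selection and counting steps were checked on simulated data. The members and lists were chosen with earlier results of these data known. Named members are the 8 most enriched, those next to the threshold, the 6 lowest and 6 highest on the mac1 array, those sharing a name, and examples of dim ones. Further members, among them DR964399, TC303716, TC300520, TC309706, TC295587 and CF040086, were named after their values were seen. No p-value is given: the rule used the W23 contrast, and the mac1 contrast has 1 sample per group. The number of arrays limits the precision.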

Additional observations from a re-analysis of the deposited data

How the results depend on the processing

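No paired analysis was possible because no result here comes from a test. The W23 ratios are already differences within an array, but they chose the members and so were left untested, and the mac1 contrast has 1 sample per group. The median mutant over heterozygote ratio of the members and the ratio of each of the 39 members at least 2-fold different had the same direction under normexp with and without the offset and with the dye estimate subtracted. So had the medians of each 50 members by rank and of the members by brightness, alternatives chosen after seeing the data, with ranks 51 to 100 at 0.06 with normexp with the offset, 0.12 without it and 0.11 with the dye estimate. The median of the most depleted probes was -0.15 with the dye estimate, and near 0 the medians of ranks 6401 to 12800 were 0.00065 and 0.0020 with normexp with and without the offset, and those of ranks 12801 to 20000 and 20001 to 27875 were -0.017 and -0.058 with the dye estimate. Sizes were not. With normexp with an offset of 50, the median mutant over heterozygote ratio was -0.13, with 4 members lower and 1 higher. Without the offset 20 were lower and 5 higher, against 3.87% and 4.23% of the filtered probes. Median centring gave 35 lower and 5 higher, against 10.7% and 6.39%, with a median of -0.44 (it moved the median of the filtered probes from -0.03 to -0.16). The authors' deposited table gave 5 lower and 1 higher of 186 members with values, against 1.03% and 1.51%, with a median of -0.14. At 1.5-fold 57 were lower and 23 higher, against 19.3% and 17.4% of the filtered probes, and at 4-fold 7 and 2, against 1.2% and 1.27%. A limit of 0.5 on the spot error, chosen after seeing the data, left 24 lower and 8 higher of 183, against 4.76% and 6.76%. For 18 single members, 40 of 86 alternative values moved by more than the spot error, and 0 of the 15 with a 2-fold difference changed direction. Of these 15, 2 were still at least 2-fold different with normexp with an offset of 50, and 13 without it. The median excess over whole anthers in heterozygote and mutant was 1.33 and 1.22 with normexp with an offset of 50, 2.13 and 2.03 without it, and 1.08 and 0.75 in the authors' deposited table, and the mutant's was 2.51 with median centring. Without replicate 1 or 2 of whole anthers these medians were 2.45 to 2.46 in the heterozygote and 2.29 to 2.30 in the mutant, and 190 to 193 members had both mac1 samples above the remaining whole-anther sample, against 44.3% to 47.2% of the filtered probes. The membership itself depends on the processing. Of the 200 members, 84 were also among the 200 most enriched with normexp with an offset of 50, 146 without the offset and 168 by the mean of both arrays. With normexp the median smaller W23 ratio of the members was 1.27 with the offset and 2.02 without, against 2.50, and these were chosen after seeing the data. The positive-and-significant flag gave 194 members measured in both mac1 channels, as the well-above-background flag did. The cause of these shifts was not tested, except that an offset draws ratios of dim spots towards 0 by construction.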

Other observations

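The members furthest above the W23 mean, chosen after their values were seen, were the brighter TC283860 probe, TC309706 and TC295587. TC283860 stood at -1.48 and -1.32 in W23 pre-meiotic cells, 1.54 in the heterozygote and 0.40 in the mutant. TC309706 stood at -0.79 and -0.65, then 1.59 and 0.84. TC295587 stood at -1.20 and -1.17, then 1.11 and -0.94. Their mutant over heterozygote ratios were -1.14, -0.76 and -2.05. The choice by a high heterozygote level favours ratios below 0. The furthest below were DR964399, CF040086 and BM075202. CF040086 stood at -0.35 and -0.49 in W23 pre-meiotic cells, -3.11 in the heterozygote and -3.03 in the mutant, close to whole anthers at -3.61 and -3.51.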
